A study of Mus musculus with 12 samples.

Results

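The comparison described here set 3 RNA sequencing libraries of primary mouse embryonic fibroblasts (MEFs) labelled Blm -/- Recql -/- against 3 labelled Blm -/-. MEFs are connective tissue cells grown out of mouse embryos. The comparison takes in 6 of the 12 libraries of the series and asks what the Recql label adds when Blm is already lost. Both groups carry the Blm -/- label, and they are called double knockout (double KO) and Blm KO below. The series also held 3 wild type (WT) and 3 Recql -/- (Recql KO) libraries, which are used for the estimate of spread and as reference levels. All cells were grown in 10% fetal bovine serum, 5% CO2 and 3% O2, with no treatment named in the labels. The sources used here do not give the strain, the alleles, the age of the embryos or the number of embryos or cultures behind each library, so a p-value reflects the scatter among the libraries at hand, which can include technical scatter. Of 24054 genes in the deposited table, 14876 had enough counts to be tested, and these are the genes described.

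Blm and Recql encode BLM and RECQL1, members of the RecQ family of DNA helicases, enzymes that unwind DNA at stalled replication forks and in recombination. BLM acts with topoisomerase III alpha and the RMI proteins to take apart joined DNA molecules, and its loss causes Bloom syndrome, with frequent sister chromatid exchange. RECQL1 is an abundant family member that can restart reversed replication forks. The series title names replication stress and loss of chromatid cohesion, so the genes of replication, recombination, cohesion and the p53 response were examined beside genes of cell identity, matrix and innate immunity.

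The 6 libraries held between 53777808 and 59296354 expected counts, the read numbers that the RSEM program assigns to each gene. Levels are given as CPM, counts relative to library size, after scaling by the trimmed mean of M values (TMM), with the SD over 3 libraries. The Blm transcript stood at 20.7 ± 1.85 CPM in WT, 4.13 ± 1.32 in Blm KO and 5.5 ± 1.57 in double KO, and the last pair did not differ by edgeR's quasi-likelihood test (log2 fold change 0.41 ± 0.24 SE, adjusted p = 0.310). The Recql transcript, whose loss the double KO label names, was 21.3, 24.1 and 21.9 CPM in the Blm KO libraries and 18.7, 35.6 and 24.7 CPM in the double KO libraries. It was not lower in double KO (a log2 fold change of 0.23 ± 0.20 SE, edgeR adjusted p = 0.497), the groups overlapped, and its sign turned without double KO 2, so that every direction below rests on the label and not on the transcript. Whether the Recql -/- allele leaves a transcript that is counted at Recql is not known from the sources used here. All 13 fibroblast markers were detected, with a summed level of 27697 to 33067 CPM in Blm KO and 26715 to 30112 CPM in double KO, and none of them was called. Most of the sum came from Col1a1 and Col1a2, at 14958 and 11572 CPM in Blm KO 1. The groups did not overlap in 4 of the 13 (30.8%, against 26.2% of all tested genes). Of these, Thy1, Twist2 and Fap were higher and S100a4 was lower in double KO.

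Some libraries stood apart within their label. The summed level of 4 Y-linked genes was 247, 1.39 and 3.44 CPM in the Blm KO libraries and 3.36, 249 and 6.25 CPM in the double KO libraries, so each group held 1 library with high Y-linked levels, under different replicate numbers. Double KO 1 alone had high interferon-stimulated genes, and double KO 2 alone had clearly raised cholesterol synthesis genes and the highest cell cycle genes, as given below. On the first principal component of the 6 libraries, which held 45.3% of the variance, Blm KO libraries lay at -44.0 to -18.8 and double KO libraries at 7.95 to 57.2. Within each label, the counts of any pair of libraries differed by much more than sampling noise (chi-square 52.3 to 172 for each degree of freedom).

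Between double KO and Blm KO, 291 of the 14876 tested genes (1.96%) changed at an adjusted p under 0.05 in edgeR's robust quasi-likelihood test with Benjamini-Hochberg adjustment over all tested genes. Of these, 139 were higher in double KO (0.934% of tested genes) and 152 were lower (1.02%). The median size of the change was 2.54-fold for the higher genes and 1.90-fold for the lower ones, and 167 genes (1.12% of those tested) changed by more than 2-fold, 96 of them upward. The median log2 fold change over all tested genes was 0.0048 after TMM scaling, which centres it near 0, and 3466 genes had an unadjusted p under 0.05. In all 291 the 3 double KO libraries lay entirely above or below the 3 Blm KO libraries, against 26.2% of all tested genes. For 144 of the 291 the Blm KO libraries also lay outside the range of the other 9 libraries, against 8.08% of all tested genes. The double KO libraries lay outside the other 9 for 68 of the 291, against 1.85% of all tested genes. The 291 were selected for a difference between these groups, and the selection itself raises each of these shares. Of the tested genes, 3895 had groups without overlap. They include the 1202 with Blm KO and the 275 with double KO outside the other 9.

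The number of calls depended on single libraries and on the tool. It was 9 without Blm KO 3, 15 without double KO 2, 89 without double KO 1, 231 without Blm KO 1, 520 without double KO 3 and 585 without Blm KO 2. DESeq2 called 1415 genes, all 291 among them, whereas edgeR fitted to the 6 libraries alone called 8, of which 5 are among the 291. With only the libraries low in Y-linked transcripts it called 31 genes, 24 of them among the 291. In each case where 1 library was left out, 9 of the 291 genes remained called, and the other 282 lost the call without at least 1 library.

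**Figure D1:**
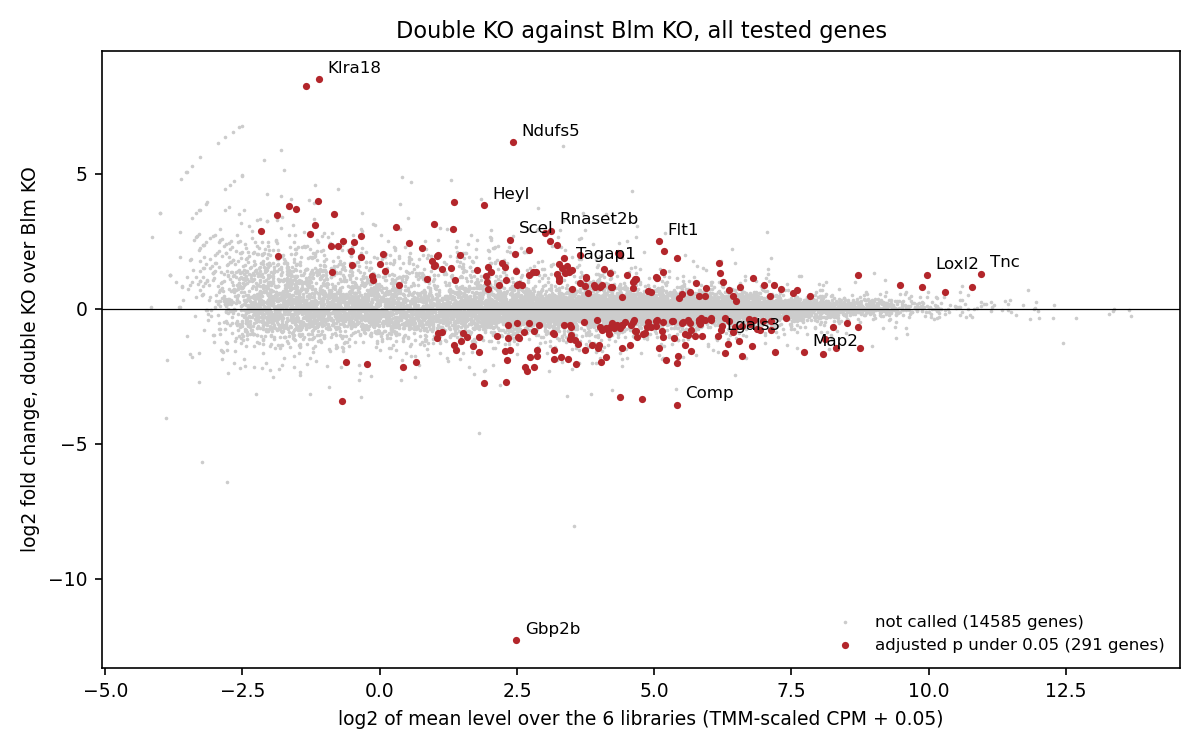
Each point is 1 of 14876 tested genes, with the mean level over the 6 libraries (log2 of TMM-scaled CPM + 0.05) on the x axis and the fitted log2 fold change of double KO over Blm KO on the y axis. The 291 called genes (red) lie on both sides of 0 at all levels, with 139 above and 152 below. For Gbp2b, Klra18 and T, which had 0 counts in all libraries of 1 group, the fitted value depends on the prior count.

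The 9 genes called whichever of the 6 libraries was left out were Gbp2b, Lgals3, Dynlt1b, Zfpm1, Zfp52, Zfp40, Tagap1, Scel and Rnaset2b. They were picked by that property after the values were seen. Gbp2b (mm10 chromosome 3, 142594847 to 142619179) encodes a guanylate-binding protein, a GTPase family known for induction by interferon. It stood at 9.54, 14.1 and 9.78 CPM in the Blm KO libraries and at 0 counts in all 3 double KO libraries, which is at least 609-fold lower against a floor of 3 counts over the double KO group (edgeR adjusted p = 6.7e-05). The WT libraries were at 0.035 to 0.038 CPM and the highest Recql KO library at 0.019, so Blm KO alone held this transcript at more than a trace. Its neighbour Gbp2, also a guanylate-binding protein gene, was 14.3, 16.9 and 12.8 CPM in Blm KO and 47.8, 12.7 and 18.4 CPM in double KO, with overlapping groups (edgeR adjusted p = 0.347). Gbp2b was the 1 call among 15 tested guanylate-binding and immunity-related GTPases (6.67%, against 1.96% of all tested genes). Of the 15, 14 had a log2 fold change above 0. Relative to the mean of the Blm KO libraries, the mean log2 level of this list was 0.21, -0.07 and -0.14 in Blm KO. In double KO it was 2.28, -0.17 and -0.35, so double KO 1 alone was raised.

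Scel and Lgals3 were set apart in the double KO libraries. Scel (chromosome 14, 103513342 to 103612797) encodes sciellin, a precursor of the cornified envelope of stratified epithelium. It was 1.17, 2.09 and 1.21 CPM in Blm KO and 8.81, 10.3 and 7.36 CPM in double KO (a log2 fold change of 2.56 ± 0.28 SE, edgeR adjusted p = 0.0040). WT reached 2.91 and Recql KO 0.927 CPM, so all 3 double KO libraries exceeded the other 9. Lgals3 (chromosome 14, 47367751 to 47386160), the gene of galectin-3, a sugar-binding protein abundant in activated fibroblasts and macrophages, was 85.3, 91.1 and 109 CPM in Blm KO and 50.8, 46.3 and 45.5 CPM in double KO (a log2 fold change of -1.0 ± 0.11 SE, edgeR adjusted p = 0.0039). Its lowest value in the other 9 libraries was 63.0 CPM, in Recql KO 1. Zfpm1 (chromosome 8, 122282141 to 122337251), which encodes FOG1, a cofactor of GATA transcription factors, was 10.4, 11 and 9.93 CPM in Blm KO and 17.4, 21.9 and 18.4 CPM in double KO (a log2 fold change of 0.88 ± 0.10 SE, edgeR adjusted p = 0.0040). Here the Blm KO libraries were lowest, WT was intermediate at 12.8 to 14.7 CPM, and Recql KO was highest at 26.4 to 26.8 CPM.

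**Figure D2:**
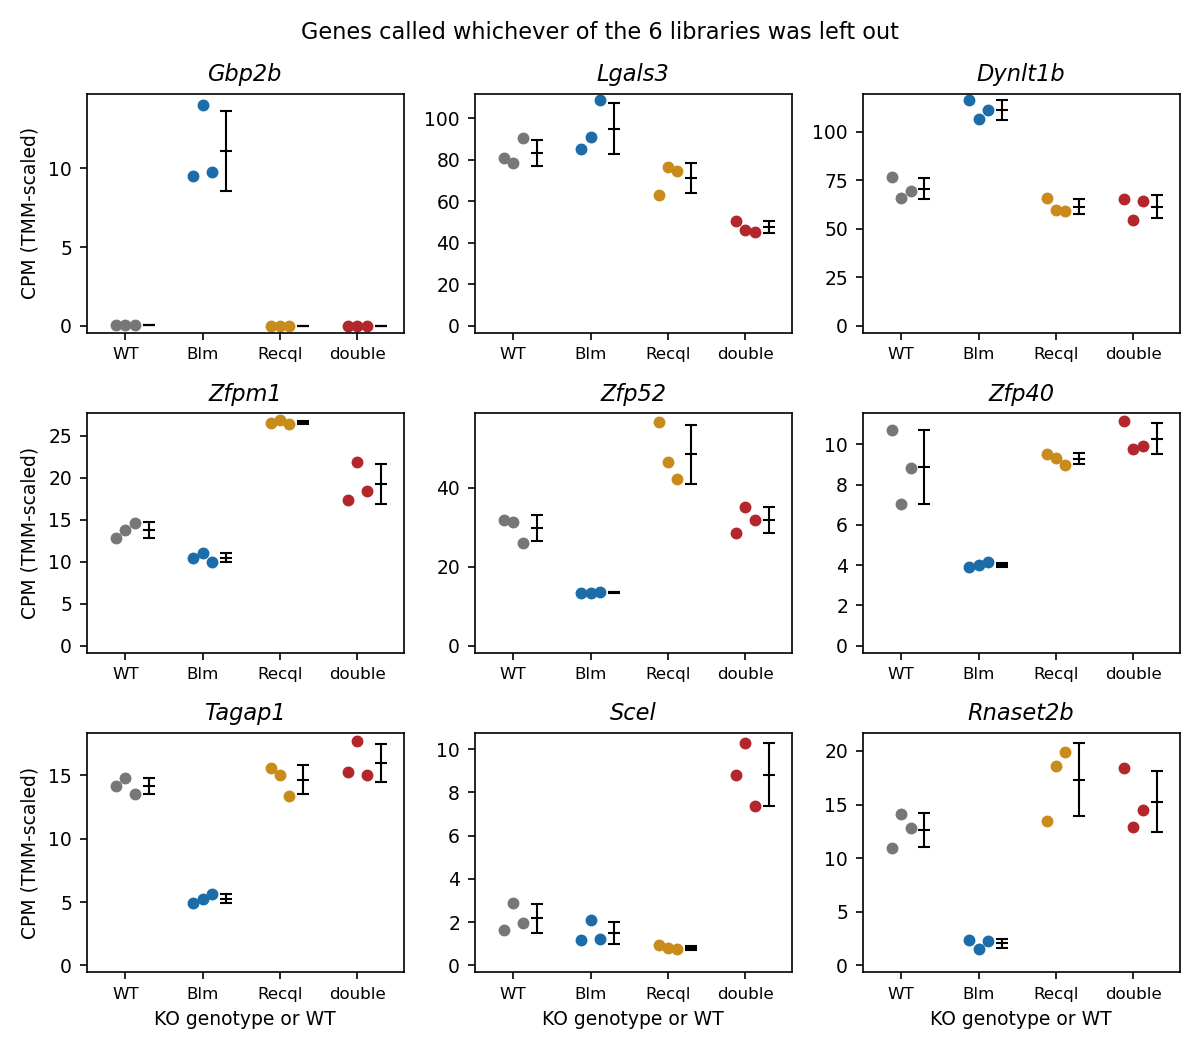
Levels (TMM-scaled CPM, linear axes that include 0) of the 9 genes called in each fit that left out 1 of the 6 libraries, with 1 point per library for each genotype and with the mean ± SD (n = 3) beside them. In Gbp2b, Dynlt1b, Zfpm1, Zfp52, Zfp40, Tagap1 and Rnaset2b the Blm KO libraries stand apart from the other 9, whereas in Scel and Lgals3 the double KO libraries do.

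The other 5 of these genes lie within the first 30 Mb of chromosome 17. Rnaset2b (6970634 to 7011299) encodes a lysosomal ribonuclease of the RNase T2 family. It was 2.32, 1.56 and 2.27 CPM in Blm KO and 18.4, 12.9 and 14.5 CPM in double KO (a log2 fold change of 2.89 ± 0.21 SE, edgeR adjusted p = 2.0e-04). WT and Recql KO libraries ranged from 10.9 to 19.9 CPM and overlapped with double KO. Tagap1 (6955011 to 6961156), which encodes a GTPase-activating protein, was 4.92, 5.27 and 5.61 CPM in Blm KO and 15.3, 17.7 and 15 CPM in double KO (a log2 fold change of 1.60 ± 0.10 SE, edgeR adjusted p = 6.7e-05). Dynlt1b (6430112 to 6436296), a dynein light chain gene, went the other way, with 117, 106 and 111 CPM in Blm KO and 65.7, 54.5 and 64.3 CPM in double KO (a log2 fold change of -0.86 ± 0.09 SE, edgeR adjusted p = 0.0033). The zinc finger gene Zfp52 (21535539 to 21562601) was 13.5, 13.4 and 13.6 CPM in Blm KO and 28.4, 35.1 and 31.8 CPM in double KO, and its fellow Zfp40 (23173869 to 23193252) was 3.92, 3.99 and 4.14 CPM against 11.2, 9.78 and 9.90 CPM (edgeR adjusted p = 0.0033 for each). In all 5 the Blm KO libraries lay outside the range of the other 9.

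Chromosome 17 up to 30 Mb, a window chosen after the positions of the called genes were seen, held 20 called genes among 273 tested (7.33%), 11 higher and 9 lower. The rest of the chromosome held 4 among 442 (0.905%). The first 10 Mb held 10 among 40 (25.0%), and of all 260 stretches of 10 Mb with at least 10 tested genes none outside chromosome 17 held more than 6. In 15 of the 20 the Blm KO libraries lay outside the range of the other 9, against 49.5% of all called genes, 13.6% of the tested genes in this window and 8.08% of all tested genes. The double KO libraries did so in 3 of the 20, against 23.4%, 1.47% and 1.85%. Tagap was 6.63, 6.66 and 5.86 CPM in Blm KO and 1.45, 0.896 and 0.475 CPM in double KO, opposite in direction to its near copy Tagap1. Park2, which encodes the ubiquitin ligase parkin, was 1.47, 1.16 and 1.24 CPM in Blm KO and 0.453, 0.176 and 0.311 CPM in double KO. T, the gene of the mesoderm transcription factor brachyury, had 0 counts in Blm KO and 1.19, 0.667 and 0.219 CPM in double KO, and was at most 0.035 CPM in WT and Recql KO. Under the other settings the window held between 0 and 40 calls, with 5 without Blm KO 3, 7 without double KO 2 and 12 without double KO 1.

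Several of these genes have near copies, between which RSEM has to share out reads. Of the 50-base stretches in their annotated transcripts, the share also found in another gene was 83.2% for Dynlt1b, 69.6% for Tagap1, 68.1% for 9030025P20Rik, 57.2% for Rnaset2b, 54.4% for Rsph3a, 49.6% for Tmem181b-ps, 47.6% for Tagap and 42.6% for Acat3. Their values are therefore uncertain as to which copy they measure, and the part of this sharing in the differences was not tested. In the other called genes of this chromosome 17 window the share was at most 9.83%. It was 0.869% for Zfp52, 0.044% for Zfp40 and 0% for T, Thbs2, Itpr3, Mapk13 and Zdhhc14. The share was also 0% for 3300005D01Rik, which was 0.169, 0.545 and 0.187 CPM in Blm KO and 4.41, 5.67 and 3.96 CPM in double KO. Its log2 fold change of 3.96 ± 0.50 SE (edgeR adjusted p = 0.012) became 4.70 without Blm KO 2, and the call was lost without Blm KO 3.

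**Figure D3:**
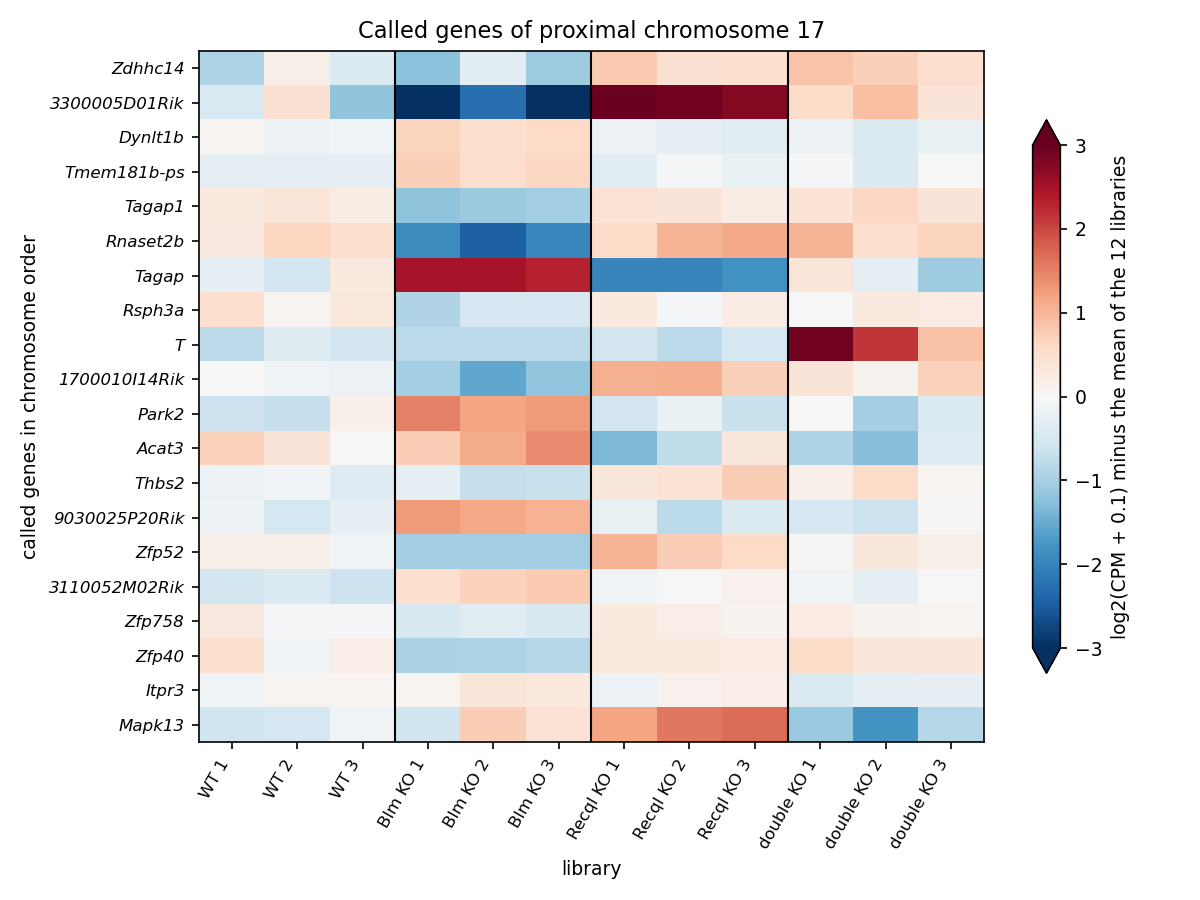
The 20 called genes of chromosome 17 up to 30 Mb, in chromosome order from the top, in all 12 libraries. Colour gives log2(TMM-scaled CPM + 0.1) minus the mean of the 12 libraries for that gene, and black lines part the 4 genotypes. In 15 of the 20 genes the 3 Blm KO columns lie outside the range of the other 9.

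Among the genes with the largest rise in double KO were regulators and enzymes that fibroblasts express at low levels. Heyl, a transcriptional repressor that responds to Notch, was 0.491, 0.720 and 0.221 CPM in Blm KO and 5.09, 10.5 and 5.06 CPM in double KO (a log2 fold change of 3.84 ± 0.63 SE, edgeR adjusted p = 0.020). Akap5, a scaffold that anchors protein kinase A, was 3.37, 1.16 and 1.48 CPM against 11.8, 18.1 and 12.3 CPM (a log2 fold change of 2.81 ± 0.41 SE, edgeR adjusted p = 0.014), and its log2 fold change was 3.41 without Blm KO 1. In both genes the double KO libraries also exceeded WT and Recql KO. Slc13a5, the citrate transporter gene, Krt20, a keratin of simple epithelium, Tbx20, a T-box factor of the developing heart, and Ces2g, a carboxylesterase gene, rose by 2.71 to 3.13 on the log2 scale from levels under 1 CPM in Blm KO. The value for Krt20 was 2.15 without double KO 2, and that for Slc13a5 was 3.81 without Blm KO 1. Klra18, a gene of the Ly49 family of natural killer cell receptors, had 0 counts in Blm KO and 0.943, 0.562 and 0.987 CPM in double KO, at least 48.1-fold higher against a floor of 3 counts over the Blm KO group.

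Ndufs5, which encodes a subunit of respiratory complex I, had the highest fitted rise of the genes named by a level of at least 1 CPM. It was 0.034, 0.176 and 0.221 CPM in Blm KO and 0.679, 16.0 and 14.8 CPM in double KO (a log2 fold change of 6.17 ± 1.17 SE, edgeR adjusted p = 0.031). Double KO 1 was far below its group, and replicate 1 was also the lowest in WT (8.34 against 21.6 and 23.7 CPM) and in Recql KO (7.91 against 23.3 and 21.6 CPM). Of its 50-base stretches, 21.7% are also found in other genes. A list of 37 other nuclear-encoded subunits of the respiratory chain gave no call, with a median log2 fold change of 0.0056.

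Among genes whose higher group averaged 50 CPM or more, the rises were led by Flt1, a receptor for vascular endothelial growth factor, at 13.6, 8.73 and 8.28 CPM in Blm KO and 35.3, 104 and 33.0 CPM in double KO (a log2 fold change of 2.5 ± 0.51 SE, edgeR adjusted p = 0.037). Its log2 fold change was 1.74 without double KO 2, which held the highest value, and the call was lost without any 1 of 5 of the 6 libraries. Clca1 was 16.8, 15 and 8.38 CPM against 102, 34.7 and 40.1 CPM, and its log2 fold change of 2.14 ± 0.40 SE (edgeR adjusted p = 0.031) was 1.48 without double KO 1. Pla2g7, which encodes the enzyme that inactivates platelet-activating factor, Pvrl2, which encodes the adhesion protein nectin-2, Kif26b, a kinesin-family gene, and Fam84b rose by 1.34 to 1.87 on the log2 scale. The groups did not overlap in any of these genes, though in Clca1, Pla2g7, Pvrl2 and Fam84b the double KO range overlapped that of Recql KO.

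Apart from Gbp2b, the largest fitted falls among the called genes were those of Comp, Evx2, Penk and Galnt13. Comp, the gene of cartilage oligomeric matrix protein, was 52.0, 69.0 and 114 CPM in Blm KO and 9.43, 6.2 and 4.49 CPM in double KO (a log2 fold change of -3.55 ± 0.55 SE, edgeR adjusted p = 0.019). Penk, the precursor of the enkephalin peptides, was 59.1, 24.8 and 65.9 CPM against 7.41, 4.27 and 3.16 CPM (log2 fold change -3.34 ± 0.52 SE, edgeR adjusted p = 0.019). Galnt13, an enzyme that starts mucin-type sugar chains, was 22.9, 39.8 and 50.2 CPM against 3.13, 3.21 and 5.41 CPM (log2 fold change -3.26 ± 0.42 SE, edgeR adjusted p = 0.012). For Comp and Galnt13 the Blm KO libraries lay above the other 9, and for Penk Blm KO 2 lay within the range of WT. Ace, the angiotensin-converting enzyme gene, Ism1, which encodes the secreted protein isthmin, Gabrb2, a subunit gene of the GABA-A receptor, and Cadm2, a cell adhesion gene, fell by 2.15 to 2.72 on the log2 scale. The fall of Ace was 2.03 without Blm KO 1, which held its highest level.

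Falls were also found among the more abundant genes. Kctd12, which encodes an auxiliary subunit of the GABA-B receptor, was 497, 258 and 479 CPM in Blm KO and 143, 104 and 136 CPM in double KO (a log2 fold change of -1.68 ± 0.27 SE, edgeR adjusted p = 0.019). Mme, the gene of the cell surface peptidase neprilysin, was 162, 118 and 167 CPM against 53.3, 23.5 and 55.6 CPM (log2 fold change -1.75 ± 0.34 SE, edgeR adjusted p = 0.032). Steap3, an iron reductase gene, Dhrs3, which encodes a retinaldehyde reductase, and Gpr64, an adhesion receptor gene, fell by 1.73 to 2.00 on the log2 scale. In Kctd12, Mme, Steap3 and Gpr64 the mean of WT lay between those of Blm KO and double KO, that of Recql KO lay below double KO, and Blm KO 2 was the lowest Blm KO library in each.

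Map2, a gene of microtubules in neuronal dendrites, was 213, 395 and 348 CPM in Blm KO and 111, 83.1 and 118 CPM in double KO (a log2 fold change of -1.61 ± 0.30 SE, edgeR adjusted p = 0.031). WT libraries were at 35.6 to 68.4 CPM and Recql KO libraries at 23.3 to 42.7 CPM, so both Blm-deficient groups lay above both others and the double KO libraries lay between. It was the 1 called gene among 15 tested members of a neural and neural crest list (6.67%, against 1.96% of all tested genes). The median log2 fold change of the list was 0.83 against 0.0048 over all tested genes. The groups did not overlap in 9 of the 15 (60%, against 26.2% of all tested genes).

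Genes of position and pattern in the embryo changed in both directions. Of 35 tested Hox genes, which encode the factors that set position along the body axis, Hoxb2 and Hoxc5 rose and Hoxa9 and Hoxd9 fell, which is 11.4% of the list against 1.96% of all tested genes. The groups did not overlap in 19 of the 35 (54.3%), against 26.2% of all tested genes. Hoxa9 was 16.7, 14.1 and 18.0 CPM in Blm KO and 6.24, 7.53 and 7.84 CPM in double KO (a log2 fold change of -1.17 ± 0.18 SE, edgeR adjusted p = 0.017), and Evx2, a homeobox gene beside the Hoxd cluster, fell by 3.41 on the log2 scale. Of 41 other regional T-box and homeobox factors, Tbx20, Emx2, Emx2os and En1 rose and Lhx9 fell (12.2% called). En1, a factor of limb and midbrain patterning, was 4.31, 2.58 and 2.25 CPM in Blm KO and 12.8, 24.7 and 9.41 CPM in double KO (a log2 fold change of 2.36 ± 0.39 SE, edgeR adjusted p = 0.022). Lhx9 was 76.1, 50.1 and 87.6 CPM against 37.0, 35.6 and 33.1 CPM (log2 fold change -1.02 ± 0.18 SE, edgeR adjusted p = 0.027). The medians of the lists were 0.17 and 0.18 on the log2 scale, and for Hoxa9, En1 and Lhx9 the groups did not overlap.

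Signalling genes of the Wnt and bone morphogenetic protein (BMP) families gave 4 calls among 52 tested members (7.69%, against 1.96% of all tested genes). The ligand genes Bmp6, Wnt9a and Wnt2b rose, and Chrd, which encodes the BMP-binding antagonist chordin, fell. Bmp6 was 1.15, 0.650 and 0.767 CPM in Blm KO and 2.64, 3.27 and 2.91 CPM in double KO (a log2 fold change of 1.77 ± 0.25 SE, edgeR adjusted p = 0.013). Chrd was 8.56, 12.3 and 12.5 CPM against 4.0, 2.32 and 3.53 CPM (log2 fold change -1.76 ± 0.32 SE, edgeR adjusted p = 0.027). Gdf6, another BMP-family ligand gene that was not on the list, was 4.39, 1.58 and 1.77 CPM against 16.4, 14.4 and 12.9 CPM (a log2 fold change of 2.5 ± 0.42 SE, edgeR adjusted p = 0.022, and 3.12 on the log2 scale without Blm KO 1). The median of the list was -0.02, with 26 values on each side of 0, and the groups did not overlap in 20 of the 52 (38.5%, against 26.2% of all tested genes).

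Of 38 tested members of the fibrillar matrix and crosslinking list 3 rose and none fell (7.89% called, against 1.96% of all tested genes). The log2 fold change was above 0 in 15 and below 0 in 23, with a median of -0.03, and the groups did not overlap in 12 (31.6%, against 26.2%). Tnc, the gene of tenascin-C, was 1224, 1357 and 852 CPM in Blm KO and 2476, 3737 and 2278 CPM in double KO (a log2 fold change of 1.31 ± 0.26 SE, edgeR adjusted p = 0.032). Loxl2, an enzyme that crosslinks collagen, was 619, 625 and 553 CPM against 1335, 1790 and 1123 CPM (log2 fold change 1.24 ± 0.20 SE, edgeR adjusted p = 0.019). Thbs2, the gene of thrombospondin-2, rose by 0.79 on the log2 scale. In Loxl2 45.0% of the 50-base stretches are shared with another gene model. All 3 genes also had higher levels in Recql KO than in WT, without overlap. In 18 tested cartilage matrix genes Comp was the only call (5.56%, against 1.96% of all tested genes), the median was -0.34 and 11 members had a negative value. The groups did not overlap in 7 of the 18 (38.9%, against 26.2%).

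Genes of the DNA damage response were called in small numbers. Of 33 tested p53 targets, Pmaip1, which encodes the pro-apoptotic protein NOXA, and Plk2, a stress-responsive polo-like kinase gene, rose, none fell, and the median was -0.0042. These are 6.06% of the list, against 1.96% of all tested genes. Pmaip1 was 59.7, 75.2 and 72.1 CPM in Blm KO and 124, 121 and 113 CPM in double KO (a log2 fold change of 0.79 ± 0.17 SE, edgeR adjusted p = 0.044). Plk2 was 191, 202 and 180 CPM against 235, 300.5 and 267 CPM (log2 fold change 0.49 ± 0.09 SE, edgeR adjusted p = 0.032). Cdkn1a, the p21 gene and the best known p53 target, was 328, 449 and 438 CPM against 481, 374 and 524 CPM, with overlapping groups (edgeR adjusted p = 0.477). Trp53 itself had an edgeR adjusted p of 0.170 and Cdkn2a one of 0.531. Xrcc5, which encodes the Ku80 subunit of the end-joining repair complex, stood on none of the lists and was named after its values were seen. It fell from 37.5, 35.5 and 39.9 CPM to 25.6, 27.9 and 31.3 CPM (log2 fold change -0.41 ± 0.09 SE, edgeR adjusted p = 0.043). Of 8 cyclin-dependent kinase inhibitor genes, Cdkn1b, which encodes p27, fell from 70.3, 61.9 and 65.2 CPM to 45.0, 46.3 and 48.2 CPM (log2 fold change -0.50 ± 0.11 SE, edgeR adjusted p = 0.048). That is 12.5% of the 8, against 1.96% of all tested genes. The call of Cdkn1b held in only 1 of the 6 fits that left out a library of these groups. Atf3, a stress-induced transcription factor, rose from 3.12, 3.27 and 2.97 CPM to 7.70, 6.76 and 5.35 CPM (log2 fold change 1.08 ± 0.16 SE, edgeR adjusted p = 0.017), to levels near those of WT at 6.75 to 8.87 CPM. Atf3 was the 1 call among 25 members of the ATF4 stress list (4%) and among 23 immediate early genes (4.35%), against 1.96% of all tested genes.

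No gene was called among 14 RecQ helicases and BLM partners, 40 replication and S phase genes, 34 G2 and mitosis genes, 32 homologous recombination and Fanconi anemia genes, 17 replication checkpoint genes or 23 chromatid cohesion genes, where 1.96% of all tested genes were called. Their medians were 0.15, 0.38, 0.47, 0.19, 0.21 and 0.06 on the log2 scale, and the value was above 0 in 39 of the 40 replication genes and in all 34 mitosis genes. The groups did not overlap in 9 of the 40 replication genes (22.5%) and 3 of the 34 mitosis genes (8.82%), against 26.2% of all tested genes. The shift was uneven between libraries. Relative to the mean of the Blm KO libraries, the mean log2 level of the mitosis list was 0.17, -0.06 and -0.11 in Blm KO and 0.38, 0.90 and 0.0042 in double KO, so that double KO 3 lay among the Blm KO libraries. Top2a, the DNA topoisomerase of mitotic chromosomes, was 248, 173 and 179 CPM in Blm KO and 273, 381 and 203 CPM in double KO (edgeR adjusted p = 0.212), and Ccnb1, the mitotic cyclin B1 gene, was 55.0, 50.5 and 47.2 CPM against 66.2, 98.8 and 51.5 CPM (edgeR adjusted p = 0.184). The median of the mitosis list was 0.21 without double KO 2. 

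Of 40 interferon-stimulated antiviral genes none was called, although their median log2 fold change was 1.91 and 39 had a value above 0. The shift was carried by double KO 1. Relative to the mean of the Blm KO libraries, the mean log2 level of the list was 0.17, -0.03 and -0.14 in Blm KO and 3.17, 0.22 and -0.41 in double KO, and the median log2 fold change was -0.02 without double KO 1. Ifit1, which encodes an antiviral RNA-binding protein, was 6.71, 4.69 and 4.89 CPM in Blm KO and 132, 4.09 and 2.70 CPM in double KO. Isg15, the gene of a ubiquitin-like modifier, was 2.90, 1.67 and 1.55 CPM against 66.8, 3.20 and 1.59 CPM. Bst2, the gene of the virus-retaining protein tetherin, was 7.29, 6.34 and 6.99 CPM against 115, 10.6 and 6.56 CPM, and Stat2, a transcription factor of interferon signalling, was 19.8, 18.7 and 17.5 CPM against 86.3, 21.8 and 15.2 CPM. In all of these genes double KO 1 was high and the other two double KO libraries lay far below it, near the Blm KO range. All 3 Recql KO libraries were high for the list, at 3.13, 3.47 and 3.70 on the same scale, and WT varied from 0.01 to 1.56. The 16 tested genes of MHC class I presentation followed the same libraries, with 1.36 in double KO 1 and -0.04 and 0.06 in the others. Mnda, which matches the current symbol Ifi211 by synonym only, was the 1 called gene among 11 of the interferon-inducible Ifi200 cluster (9.09%, against 1.96% of all tested genes). It was at 6.76, 4.08 and 4.60 CPM in Blm KO and 21.6, 9.69 and 12.8 CPM in double KO (a log2 fold change of 1.51 ± 0.32 SE, edgeR adjusted p = 0.043), with 72.8% of its 50-base stretches shared with other genes.

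The promoters of 3 of these genes are shown because their transcripts move together in the same library. Each line gives the 250 bases before the RefSeq transcription start on GRCm38.p6 (the assembly of mm10), 5′ to 3′ on the strand of the gene, with capitals for matches to GAAANNGAAA, the core of the interferon-stimulated response element, searched on both strands, overlapping matches included. Ifit1 is at chr19:34640639-34640888 on the plus strand, Bst2 at chr8:71537473-71537722 on the minus strand and Stat2 at chr10:128270248-128270497 on the plus strand. They are the 3 genes with a match that had the highest level in double KO 1.
Ifit1: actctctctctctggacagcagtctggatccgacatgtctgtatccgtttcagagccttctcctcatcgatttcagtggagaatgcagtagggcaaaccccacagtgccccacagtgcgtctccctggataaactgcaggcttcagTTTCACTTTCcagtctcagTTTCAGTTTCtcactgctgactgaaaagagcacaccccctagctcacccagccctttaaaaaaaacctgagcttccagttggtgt
Bst2: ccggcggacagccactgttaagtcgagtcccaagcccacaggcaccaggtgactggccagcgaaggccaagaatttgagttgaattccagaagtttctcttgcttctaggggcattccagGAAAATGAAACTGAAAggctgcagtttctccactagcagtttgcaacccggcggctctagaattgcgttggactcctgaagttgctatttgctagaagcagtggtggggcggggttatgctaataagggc
Stat2: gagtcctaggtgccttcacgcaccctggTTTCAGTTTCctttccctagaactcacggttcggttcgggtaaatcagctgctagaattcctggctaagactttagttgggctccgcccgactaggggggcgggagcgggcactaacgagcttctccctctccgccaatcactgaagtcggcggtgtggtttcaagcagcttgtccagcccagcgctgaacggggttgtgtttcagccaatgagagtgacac
The motif occurred in 11 of the 28 list members that had a promoter entry (39.3%), of 40 looked up, and in 936 of all 27025 promoters (3.46%). Ifit1 and Bst2 each hold 2 matches and Stat2 holds 1. A match describes the letters only and is not a measured binding site.

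Cholesterol synthesis genes gave a further case of 1 library. None of 24 tested members was called and the median was 0.48, with 23 values above 0. The list stood at -0.23, 1.18 and 0.13 in the double KO libraries and at -0.18, 0.45 and -0.26 in the Blm KO libraries, and its median was -0.06 without double KO 2. Hmgcs1, an early enzyme of the pathway, was 177, 228 and 158 CPM in Blm KO and 151, 413 and 188 CPM in double KO (edgeR adjusted p = 0.430). In both groups replicate 2 was the highest.

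**Figure D4:**
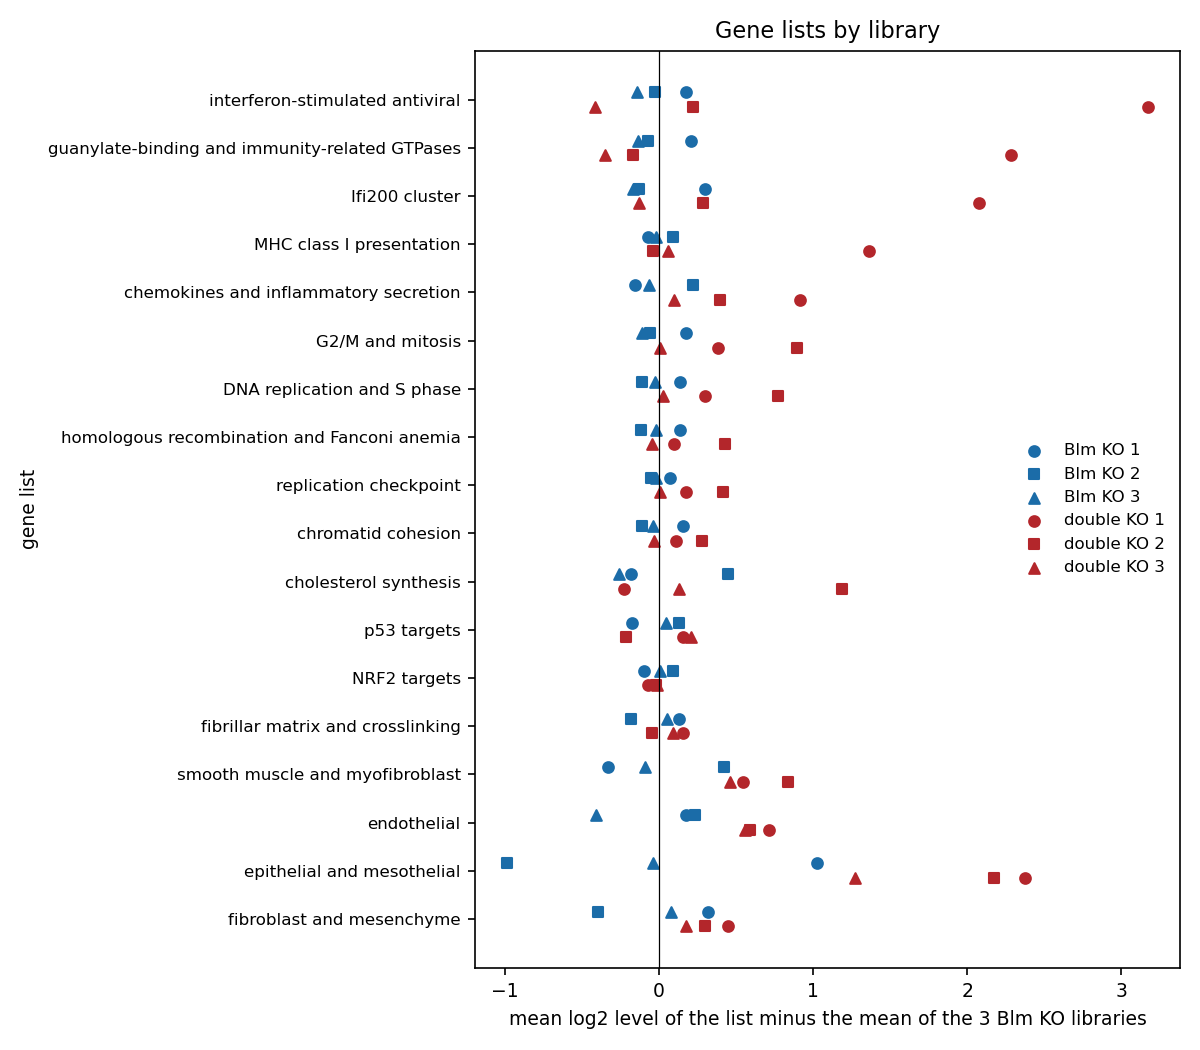
Mean log2 level of 18 gene lists in each Blm KO (blue) and double KO (red) library, minus the mean of the 3 Blm KO libraries, with circles, squares and triangles for replicates 1, 2 and 3. Double KO 1 stands apart at 3.17 in the interferon list, double KO 2 at 1.18 in cholesterol synthesis, and the epithelial and mesothelial list is above 1 in all 3 double KO libraries (1.27 to 2.37) and in Blm KO 1 (1.02).

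The summed levels of some marker lists of other cell types were higher in double KO than in Blm KO. The epithelial and mesothelial list, 13 of whose 17 members were tested, had a median log2 fold change of 2.1 with 12 values above 0, and no member was called. Its summed level was 36.9 to 71.3 CPM in Blm KO and 126 to 194 CPM in double KO, without overlap, and in 8 of the 13 the groups did not overlap, against 26.2% of all tested genes. Relative to the Blm KO mean, the mean log2 level of this list was 1.27 to 2.37 in double KO. In WT it was 0.66 to 2.30, which overlapped with double KO and with Blm KO at -0.98 to 1.02. In Recql KO it was -1.50 to -0.44. There 9 of the 13 were called lower than in WT, with a median log2 fold change of -2.35. Upk3b, a uroplakin of mesothelium, was 13.9, 0.773 and 4.29 CPM in Blm KO and 43.2, 29.4 and 31.2 CPM in double KO (edgeR adjusted p = 0.135). Wt1, a transcription factor of mesothelium, was 5.36, 0.720 and 1.09 CPM against 11.9, 12.5 and 6.41 CPM (edgeR adjusted p = 0.126), and Msln, the mesothelin gene, was 11.9, 7.89 and 9.88 CPM against 28.8, 32.1 and 20.1 CPM (edgeR adjusted p = 0.163). The epithelial members Epcam, Cdh1, Esrp1 and Grhl2 were at most 1.06 CPM in any of the 6 libraries. Of the tested keratins on the list, Krt7, Krt14 and Krt18 were higher in double KO without overlap. Krt8 was 3.15, 0.105 and 1.04 CPM in Blm KO and 8.51, 10.2 and 2.06 CPM in double KO, with overlap. Krt19 was not higher, at 8.29, 19.6 and 12.3 CPM against 8.36, 13.9 and 9.17 CPM. In these bulk libraries more cells of a type and more RNA per cell cannot be told apart, and the part of such cells in the rise of Krt20 and Scel was not tested.

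Endothelial genes moved in both directions. Of 10 tested markers, Flt1 and Emcn, a sialomucin gene, rose and Erg, an ETS family transcription factor gene, fell (3 of 10 called, against 1.96% of all tested genes). Erg was 38.0, 11.9 and 28.4 CPM in Blm KO and 5.64, 5.02 and 9.08 CPM in double KO (a log2 fold change of -1.99 ± 0.44 SE, edgeR adjusted p = 0.047), whereas Emcn rose from 0.256 to 0.580 CPM to 1.32 to 1.86 CPM (log2 fold change 2.03 ± 0.37 SE, edgeR adjusted p = 0.029). The defining markers Pecam1 and Cdh5 were at most 1.25 CPM, and Sox17 and Cldn5 were at 0 in all 6 libraries. Summed endothelial levels were 35.2 to 62.5 CPM in Blm KO and 56.7 to 123 CPM in double KO. These sums mainly follow Flt1 and Erg, which moved in opposite directions. Flt1 made up 104 of the 123 CPM in double KO 2, and Erg 38.0 of the 62.5 CPM in Blm KO 1. Macrophage and blood markers summed to 4.85 to 15.7 CPM in Blm KO and 9.74 to 25.5 CPM in double KO, with a median log2 fold change of 1.43, 14 of 15 tested genes above 0, no call, and 4 of 20 genes at 0, haemoglobin genes and Gata1. Relative to the Blm KO mean, their mean log2 level was 1.30, -1.18 and -0.12 in Blm KO and 2.33, 1.32 and 0.70 in double KO. In WT it was 1.44, 2.15 and 0.15, which overlapped with double KO. Fabp4, a fatty acid carrier of adipocytes, fell from 10.3, 25.5 and 14.4 CPM to 4.13, 4.14 and 5.72 CPM (log2 fold change -1.84 ± 0.38 SE, edgeR adjusted p = 0.040), the 1 call among 6 tested adipocyte genes (16.7%, against 1.96% of all tested genes). Of the 6, 4 had a log2 fold change below 0 and 2 had one above 0. The 17 smooth muscle and myofibroblast genes had a median of 0.53 and no call, with summed levels of 8485 to 15405 CPM in Blm KO and 15297 to 17679 CPM in double KO.

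The neighbourhood of Recql on chromosome 6 was examined because the groups differ by label at that locus. Within 10 Mb of it 6 of 87 tested genes were called (6.90%), against 1.96% of all tested genes. In Recql KO against WT 29 of the same 87 genes were called, where 29.9% of all tested genes were called. Ldhb, a lactate dehydrogenase subunit gene and the nearest of the 6 to Recql, was 39.8, 34.2 and 35.5 CPM in Blm KO and 21.1, 15.4 and 21.2 CPM in double KO (a log2 fold change of -0.92 ± 0.19 SE, edgeR adjusted p = 0.037), without overlap. Arhgdib, a GDP dissociation inhibitor gene, was 130, 151 and 158 CPM against 92.9, 90.0 and 81.0 CPM (log2 fold change -0.73 ± 0.12 SE, edgeR adjusted p = 0.020). 8430419L09Rik, Gpr19 and Cdkn1b also fell, and Dusp16, a phosphatase gene of the MAP kinase pathways, rose by 0.63 on the log2 scale. Of the 6 fits that left out a library of these groups, the call held in 4 for Arhgdib and Dusp16. It held in 2 for Ldhb and 8430419L09Rik and in 1 for Gpr19 and Cdkn1b. Within 5 Mb 1 of 41 genes was called and within 20 Mb 8 of 180 (4.44%). Around Blm on chromosome 7, which is labelled -/- in both groups, 1 of 103 genes within 10 Mb was called (0.971%), and 0 of 72 within 5 Mb.

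To ask whether the Recql label goes with the same genes when Blm is intact, the contrast was set beside Recql KO against WT, which shares no library with it. The Recql transcript was not called there either, at 21.7, 24.3 and 29.8 CPM in Recql KO and 25.7, 28.1 and 29.3 CPM in WT, with overlapping groups (log2 fold change -0.13, edgeR adjusted p = 0.642), so these directions too rest on the label. In Recql KO against WT the groups also differed in Y-linked transcripts. The summed level of the 4 Y-linked genes was 249, 229 and 257 CPM in WT and 283, 28.7 and 0.676 CPM in Recql KO. All WT libraries were thus high while the Recql KO libraries were mixed. The parts of the label and of this imbalance in the calls cannot be told apart here. That contrast had 4444 called genes (29.9%). Of the 291 genes called here, 159 were also called there, which is 54.6% of the 291 and 3.58% of the 4444. The sign was the same in 128 of the 159, with 51 higher in both and 77 lower in both, and opposite in 31. Comp, for example, fell in both, to 0.534 to 1.90 CPM in Recql KO from 9.13 to 31.5 CPM in WT. En1, Tnc and Loxl2 were higher with the Recql label in both settings. Heyl, Akap5, Slc13a5, Gdf6, Tmem108 and Sphkap rose in double KO over Blm KO and were lower in Recql KO than in WT.

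The difference between the 2 contrasts was tested as an interaction: the log2 fold change of double KO over Blm KO, less that of Recql KO over WT. It was called for 1554 of 14876 genes (10.4%), 872 positive and 682 negative, and for 101 of the 291 genes changed here. Of the 128 genes called in both contrasts with the same sign, 123 were not called in the interaction, which does not show that the changes were equal. Akap5 had 0.982, 1.67 and 0.901 CPM in Recql KO and 3.31, 3.82 and 5.27 CPM in WT, with an interaction of 4.60 on the log2 scale (edgeR adjusted p = 0.0036). Ccdc141, which had the smallest interaction p of the named genes, was 13.0, 9.68 and 12.8 CPM in Blm KO and 18.2, 20.7 and 22.7 CPM in double KO, but 12.4, 12 and 10.7 CPM in WT and 4.10, 3.91 and 3.73 CPM in Recql KO (interaction 2.37 on the log2 scale, edgeR adjusted p = 9.1e-04). For Ccdc141 the Recql label thus went with a higher level beside Blm KO and with a lower level beside WT, without overlap in either pair. Among the mitosis genes, 29 of 34 were called in the interaction, with a median log2 fold change of 0.47 here and of -0.75 in Recql KO against WT, where 27 fell. None of the 34 was called between double KO and Blm KO. Relative to the Blm KO mean, their mean log2 level was 0.72, 0.85 and 0.61 in WT and -0.31, -0.09 and 0.14 in Recql KO. It was 0.38, 0.90 and 0.0042 in double KO, which overlapped with WT. The number of interaction calls was 549 without Blm KO 3 and 648 to 1016 without single Recql KO libraries or WT 2 or WT 3.

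**Figure D5:**
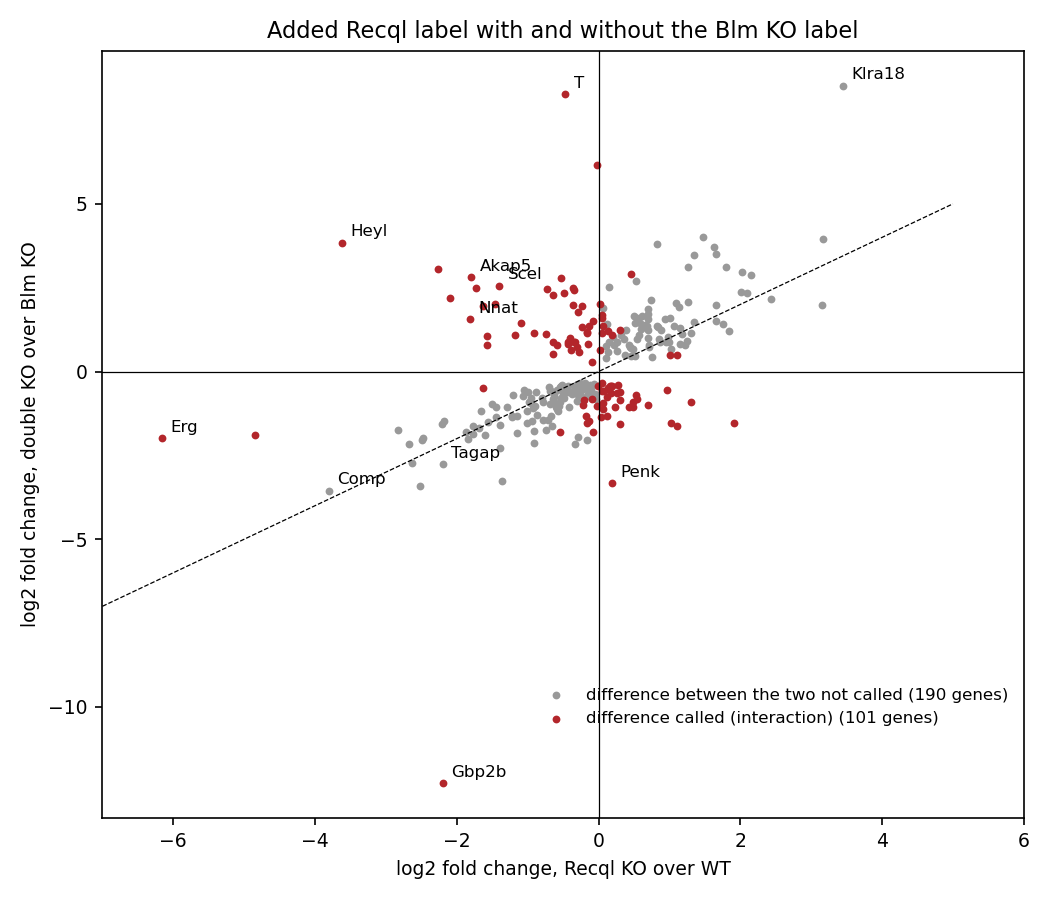
The 291 genes called in double KO against Blm KO, with the log2 fold change of Recql KO over WT on the x axis and that of double KO over Blm KO on the y axis; the dashed line marks equal change. The 101 genes called in the interaction are drawn in red and the others in grey. Heyl and Akap5 lie above 0 on the y axis and below 0 on the x axis, and Comp lies below 0 on both.

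Levels of the same genes against WT are given as values, since each contrast with WT shares libraries with the one described. Of the 14876 genes 112 (0.753%) were called in Blm KO against WT and 18 (0.121%) in double KO against WT. Tagap1 was 14.2, 14.8 and 13.5 CPM in WT, close to the 15 to 17.7 CPM of double KO and above the 4.92 to 5.61 CPM of Blm KO. Kctd12 was 275, 181 and 317 CPM in WT, overlapping with Blm KO through Blm KO 2 and lying above the 104 to 143 CPM of double KO. Arhgdib was 241, 202 and 176 CPM in WT, above both Blm KO and double KO.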

How the data were processed

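Polyadenylated RNA of 12 MEF libraries (4 genotypes, 3 each) was prepared with a KAPA stranded kit, per the labels' protocols. Per the submitters' processing notes, Bowtie2 2.1.0, RSEM 1.2.15 and the mm10 build were used. The expected counts, RSEM's estimates, came as a single deposited table with 1 row per gene. The annotation and strand setting of the counting are not stated in the labels or notes at hand. RSEM shares reads between similar genes, so near copies are uncertain, and with the strand setting unknown so are genes that overlap an antisense partner.

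The counts were rounded to whole numbers, then fitted in R 4.3.3 with edgeR 4.0.16 (filterByExpr, TMM factors of 0.96 to 1.03, 1 mean per genotype over 12 libraries, 8 residual degrees of freedom, common biological coefficient of variation 0.209, robust quasi-likelihood F test, Benjamini-Hochberg adjustment over 14876 genes, calls at an adjusted p under 0.05). Log2 fold changes carry the SE of the model, and no fold threshold enters a call. A floor of 3 counts covers counting error only and corresponds to 0.0508 to 0.0566 CPM in a library of these 2 groups. List levels are means of log2 CPM with a prior count of 2. Gene lists are described by counts and medians, with no test.

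The members and lists were chosen with earlier results of these data known. Named genes are a subset of those given by a rule (the targeted and p53 pathway genes, the largest called changes in each direction at 1 CPM or more, called list members, abundant called genes, called genes near Recql, and genes ranked by Recql KO against WT or by the interaction). The genes of chromosome 17 outside that subset, Lgals3, Dynlt1b, Zfpm1, Zfp52, Zfp40, Gbp2 and the list members that were not called were named after their values were seen. Positions came from GENCODE M21 and RefSeq (GRCm38.p6) by symbol or synonym for 99.5% of tested genes. Symbols missing from the table left 17 of 19 replication checkpoint, 23 of 24 cohesion and 11 of 13 Ifi200 genes.

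The steps were tested on simulated data. Of the changes put in, 32.8% were recovered at 1.5-fold, 86.6% at 2-fold and 92.4% at 4-fold. Of 150 calls 9 were false, and with no changed gene 0 genes were called. The simulated libraries varied independently and none stood apart within its group. The simulation therefore does not cover the dependence of the calls on single libraries. Alternatives were RLE scaling, other filters, DESeq2 1.42.0, the 6 libraries alone, a replicate block, thinning, the Y-linked level as a covariate or as a selection of libraries, and leaving out each library.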

Additional observations from a re-analysis of the deposited data

Results flagged for a closer look

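In 29 of the 73 named genes the effect of the Recql label beside Blm KO differed from its effect beside WT by the edgeR interaction test at an adjusted p under 0.05, against 10.4% of all tested genes. The rule that named the genes took some of them for this difference, so the share is a description. The values below are the log2 fold change of double KO over Blm KO minus that of Recql KO over WT. A positive difference was 7.46 for Heyl, 6.2 for Ndufs5, 5.32 for Slc13a5, 4.60 for Akap5, 4.28 for Tmem108, 4.22 for Gdf6, 4.17 for Erg, 3.97 for Scel and 3.57 for Sphkap. It was 3.48 for Emcn, 3.38 for Nnat, 2.85 for Flt1, 2.62 for Entpd1, 2.44 for Rnaset2b, 2.37 for Ccdc141 and 2.07 for Bmp6. Smaller positive differences were 1.57 for Kif26b, 1.55 for Tagap1, 1.13 for Cdkn1b, 1.08 for Emx2os, 0.89 for Atf3 and 0.60 for Dusp16. A negative difference was -10.08 for Gbp2b, -3.53 for Penk, -1.55 for Cdkn2a, -1.51 for Blvrb, -0.99 for Lhx9, -0.75 for Cdkn1a and -0.62 for Plk2. The value for Gbp2b is fitted against a group at 0 counts and depends on the prior count. Cdkn1a and Cdkn2a were not called between double KO and Blm KO, and both were higher in Recql KO than in WT, at 608 to 708 against 301 to 363 CPM for Cdkn1a and at 40.6 to 42.1 against 15.3 to 19.2 CPM for Cdkn2a. Why these effects differ was not tested.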

How the results depend on the processing

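The number of called genes (291, and 167 over 2-fold) stayed within 1.5 times under RLE scaling, no filter, a filter of CPM above 1, thinning and the Y-linked covariate, with 259 to 301 calls. It was 1415 with DESeq2 (570 over 2-fold), which called 51.9% of its genes higher, 8 and 8 with the 6 libraries alone, and 31 and 28 with libraries low in Y-linked transcripts. Among libraries high in them, Blm KO, double KO and Recql KO each have 1 and WT has 3. The spread in that fit comes from WT alone, so its counts of calls are not given. Leaving out 1 of the 6 libraries gave 9 to 585 calls and 6 to 302 over 2-fold, and the share of higher genes ran from 47.8% with all libraries to 73.3% without double KO 2. The 1554 interaction calls became 2625 with DESeq2, 820 with the Y-linked covariate, and 549 to 1836 without single libraries. With replicate number as a block the calls were 762 (305 over 2-fold) and 1615 for the interaction. Deviations of same-numbered libraries correlated at 0.029, -0.158 and 0.107, so the numbers were not taken as pairs, and not every library correlated best with its own number. Of 1165 values of named genes under these settings, 729 kept their direction and their side of the threshold, 433 fell short of it and 3 turned: the log2 fold change of Recql to -0.083 (edgeR adjusted p = 0.845) with libraries low in Y-linked transcripts and to -0.047 (0.927) without double KO 2, and that of Cdkn2a to 0.0016 (0.998) without Blm KO 2. Without single libraries the range was -0.047 to 0.42 for Recql and -0.55 to 0.0016 for Cdkn2a. Of the list medians 652 moved by less than the spread between libraries and 52 by more. The cause of these differences between settings was not tested. Calls within 10 Mb of Recql (6) were 1 within 5 Mb and 8 within 20 Mb, and those near Blm (1) were 0 and 4. With 3 libraries a side, and low counts in many genes, a gene that was not called is not shown to be level.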

Other observations

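Heat shock, ribosomal protein and proteasome genes were not described above. None of their tested members (17, 56 and 31) was called. Of the 31 proteasome subunit genes 29 had a log2 fold change above 0, with a median of 0.15, and the groups did not overlap in 11 (35.5%, against 26.2% of all tested genes). Of the 17 heat shock genes 15 were above 0 with a median of 0.20. The mean log2 level of the proteasome list was highest in double KO 2, at 0.28 over the Blm KO mean, with 0.06 in double KO 1 and 0.08 in double KO 3. The 56 cytosolic ribosomal protein genes had a median of 0.0062 and no call, with the list at -0.09, -0.15 and 0.24 in the double KO libraries.

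On chromosome 2 between 70 and 80 Mb, which holds the Hoxd cluster, 6 of 64 tested genes were called (9.38%), with Hoxd9, Evx2, Gpr155, Osbpl6 and Slc25a12 lower and Ccdc141 higher in double KO. On chromosome 15 between 60 and 70 Mb 4 of 18 were called (22.2%), all higher, namely Fam84b, Tg, Wisp1 and 9930014A18Rik. These stretches were picked after the counts of all stretches were seen, and 1.96% of all tested genes were called.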
